A study of Mus musculus with 6 samples.

Results

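The collagen chains are the genes whose symbol in the deposited mRNA table has the form Col, a type number, the letter a and a chain number. This rule found 44 chains among 22298 genes, and 42 of them had at least 1 count in some library. Col9a1 and Col10a1 had 0 counts in all 6 libraries together, which allows a level of up to 0.0166 CPM (counts scaled to library size; 3 counts over the 6 libraries, counting error only). The low-count filter of the test passed 30 chains, and the other 14 are described by their counts alone. The levels come from RNA sequencing of GC-1spg cells, an immortalised line of mouse spermatogonial origin that models type B cells. The si-METTL3 group was 3 libraries of cells transfected with an siRNA against Mettl3, which encodes the catalytic subunit of the methyltransferase that places N6-methyladenosine (m6A) on mRNA. The si-NC group was 3 libraries of cells transfected with a control siRNA. Both groups were grown in DMEM with 10% FBS, transfected at 60% density and collected after 48 h. The labels print the same sequence for both siRNAs and tag the control libraries as untreated, so the control siRNA's sequence is not known, and no library is of untransfected cells. All libraries are of this single cell line, and m6A and protein were not measured.

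The mRNA table summed to between 22146057 and 31469144 counts per si-METTL3 library, and between 29679593 and 37698956 per si-NC library. Mettl3 itself had 142, 134 and 136 counts in si-METTL3 cells, against 606, 578 and 683 in si-NC cells, which gave a log2 fold change of -1.79 with an SE of 0.14 (edgeR adjusted p = 0.000579). Of 10 germ-line genes 3 were at 0 in every library, and neither Ddx4 nor Dazl, which define germ cells, had more than 7 counts in any library. Summed CPM of the 10 was 3.16 to 3.48 in si-METTL3 libraries and 5.20 to 5.77 in si-NC libraries, and Piwil2 was lower (-0.74, adjusted p = 0.0173). Of 15 spermatogonial genes 3 were at 0, and their summed CPM was 216 to 236 in si-METTL3 libraries and 173 to 178 in si-NC libraries, with Itga6 (0.59, adjusted p = 0.00449) and Gfra1 (0.65, adjusted p = 0.0389) higher. Itga6 alone held 161, 150 and 173 CPM of these sums in si-METTL3 libraries, against 108.5, 111 and 103 in si-NC libraries. Of the 8 tested genes Etv5 (-0.42, adjusted p = 0.0529), Id4 (-0.16), Uchl1 (0.003), Kit (1.18), Thy1 (1.12) and Zbtb16 (1.21) did not pass. Summed CPM of 19 lung genes was 158, 149 and 119 in si-METTL3 libraries, against 75.6, 61.5 and 141 in si-NC libraries. Among the controls si-NC replicate 3 thus stood apart in these sums. Lpcat1 alone held 46.7, 39.5 and 42.8 CPM of them in si-METTL3 libraries, against 63.7, 51.2 and 64.4 in si-NC libraries. It was lower (-0.47, adjusted p = 0.0313), and none of the 17 tested lung genes was called higher. In the brain list si-NC replicate 1 stood apart, with 8 of 16 genes at 0 in it and counted in every other library. Collagen results that turn on either library are given with and without it.

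Collagens are the main structural proteins of the extracellular matrix. Each molecule is a trimer of alpha chains wound around each other, built from chains of the same gene or of a few partner genes, so the supply of partner chains sets which trimers can form. The fibrillar types build the fibres that carry tension, type IV builds the sheet of the basement membrane, type VI builds beaded filaments near the cell surface, and the FACIT types sit on the surface of fibrils. In the testis, collagens of the basement membrane and the tissue around the seminiferous tubules border the spermatogonia.

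Transcripts of a few chains made up nearly all of the collagen RNA. On the per-length FPKM scale (fragments scaled to transcript length and library size, as deposited), 2 chains averaged at least 100 FPKM, 8 at least 10 and 17 at least 1. The 10 chains of highest mean FPKM held 96.2% of the summed collagen FPKM. Col1a1, the major chain of collagen I, was highest with 252, 223 and 224 FPKM in si-METTL3 cells, against 243, 207 and 233 in si-NC cells. Col4a1, the main chain of the basement membrane collagen, followed with 154, 140 and 140 FPKM in si-METTL3 cells, against 135, 125 and 131 in si-NC cells. Its partner Col4a2 had 66.6, 58.9 and 59.6 FPKM in si-METTL3 cells, against 62.8, 53.1 and 60.6 in si-NC cells. The FPKM of the groups overlapped for Col1a1 and Col4a2 and did not for Col4a1, whose counts did not pass the test either.

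Col5a2, a chain of the collagen V that is built into collagen I fibrils, had 32.0, 30.1 and 29.96 FPKM in si-METTL3 cells, against 36.6, 31.3 and 33.1 in si-NC cells. Its partner Col5a1 had 21.03, 19.6 and 22.0 FPKM in si-METTL3 cells, against 22.4, 19.6 and 20.1 in si-NC cells. Col1a2, the second chain of collagen I, had 28.8, 30.1 and 27.2 FPKM in si-METTL3 cells, against 22.8, 19.4 and 23.3 in si-NC cells. The groups overlapped for both collagen V chains, and all si-METTL3 libraries were above all si-NC libraries for Col1a2. Col4a5, a further basement membrane chain, had 9.32, 8.77 and 7.84 FPKM in si-METTL3 cells, against 9.1, 9.23 and 9.0 in si-NC cells, with overlap. The remaining chains among the 10 are Col6a1, Col6a2 and Col16a1, which passed the test and are described below with their types.

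**Figure D1:**
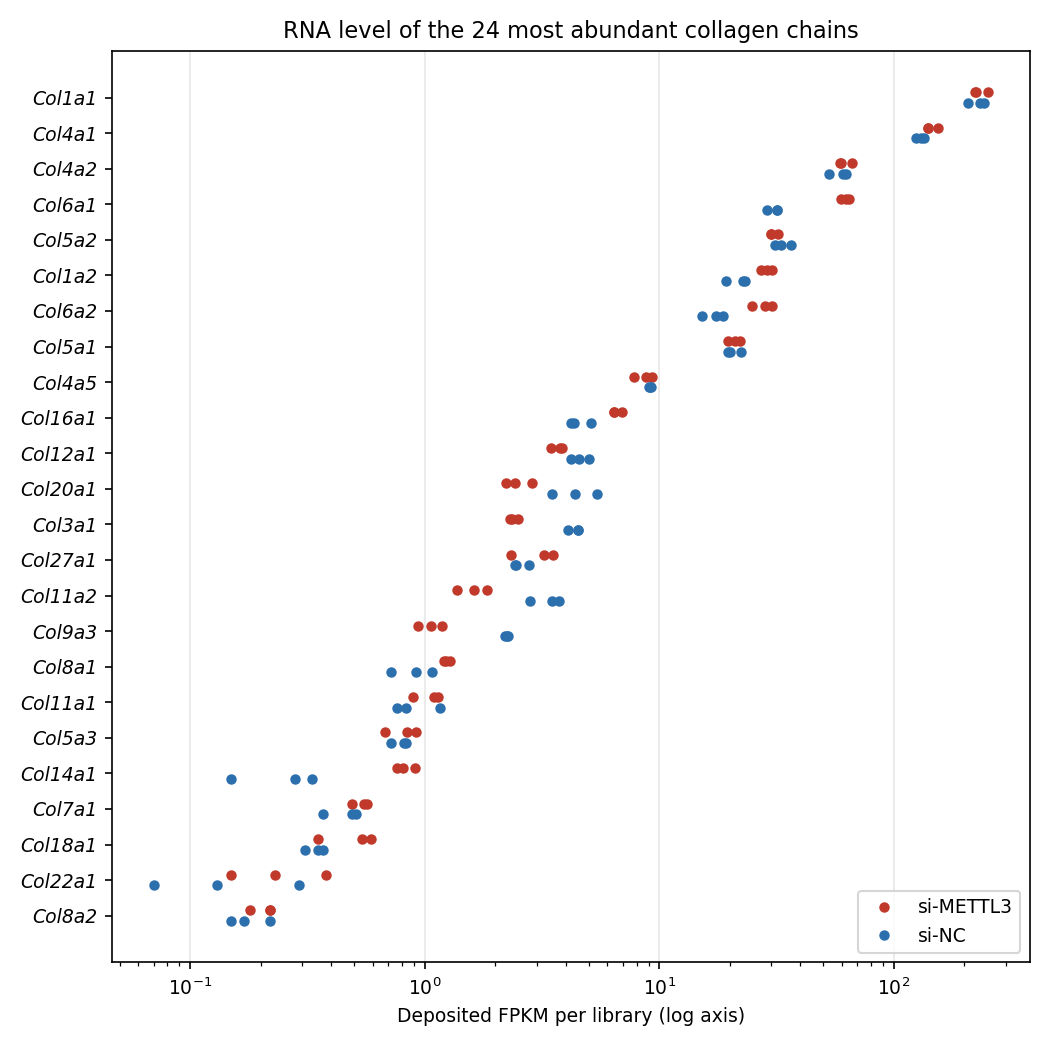
Deposited FPKM of the 24 chains of highest mean FPKM in each of the 6 libraries, on a log axis; each point is a library, si-METTL3 above si-NC within each row. Col1a1 and Col4a1 are the only chains whose mean reaches 100 FPKM, and the si-METTL3 points of Col6a1 (59.5 to 64.4 FPKM) are right of its si-NC points (28.9 to 31.8 FPKM).

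Of the 30 tested chains 11 (36.7%) passed the threshold, against 18.9% of all 13082 tested genes (quasi-likelihood test of edgeR at a threshold of 0.05 on p-values adjusted by Benjamini-Hochberg over all tested genes). Higher in si-METTL3 cells were 6 chains, against 8.67% of all tested genes, and lower were 5, against 10.2%. With 1 surrogate variable in the fit 14 of the 30 chains (46.7%) were called, against 42.7% of all tested genes, so the share of chains was then near that of all genes. The chains were chosen as a group with earlier results of these data known, so these shares are descriptions and not tests. The higher chains were the collagen VI chains Col6a1, Col6a2 and Col6a3 and the FACIT chains Col14a1, Col22a1 and Col16a1. The lower chains were the fibrillar Col3a1 and Col11a2 and the FACIT chains Col9a3, Col20a1 and Col12a1. The median log2 fold change was 0.18 over the 30 chains, against 0.03 over all tested genes, and the median of its size was 0.34, against 0.26. In these bulk libraries fewer cells of a type and less RNA per cell cannot be told apart. Whether each library had its own culture is not in the labels. All p-values therefore refer to the spread among these 6 libraries, and that spread may be technical.

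**Figure D2:**
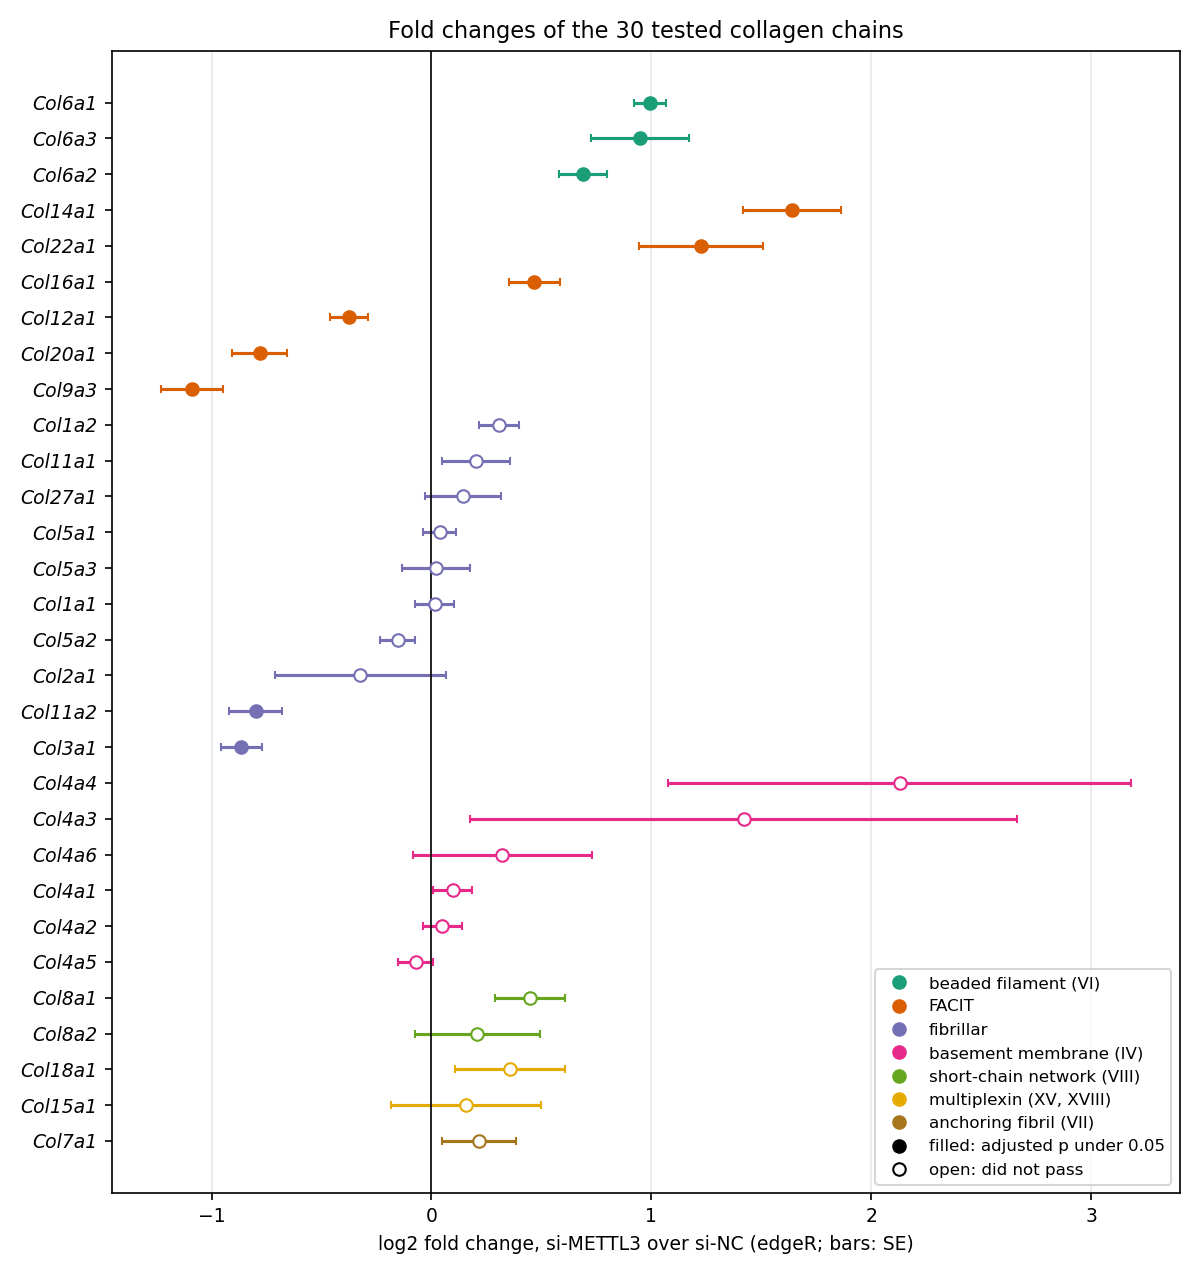
Log2 fold change, si-METTL3 over si-NC, of each of the 30 tested collagen chains, coloured by collagen class, with bars of 1 SE from edgeR; filled points passed the adjusted p of 0.05. The collagen VI chains are all right of 0, between 0.69 and 0.99, the FACIT chains are on both sides, and Col4a3 and Col4a4 have the widest bars.

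Collagen VI was the class whose share moved most. Its summed level was 90.1 ± 5.14 FPKM in si-METTL3 cells and 48.0 ± 3.35 FPKM in si-NC cells (SD, n = 3 each), which was 14.0% ± 0.914 of the collagen FPKM in si-METTL3 cells and 8.27% ± 0.274 in si-NC cells. The tested chains of the class, Col6a1, Col6a2 and Col6a3, were all called higher. Fibrillar chains made up 49.9% ± 0.597 of the collagen FPKM in si-METTL3 cells and 54.4% ± 0.736 in si-NC cells. Basement membrane chains made up 33.4% ± 0.425 in si-METTL3 cells and 34.2% ± 0.550 in si-NC cells. FACIT chains made up 2.32% ± 0.214 in si-METTL3 cells and 2.80% ± 0.268 in si-NC cells. The summed FPKM of all chains was 646 ± 31.1 in si-METTL3 cells and 581 ± 38.2 in si-NC cells.

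Col6a1 and Col6a2 encode the alpha chains that pair with a longer chain, classically that of Col6a3, in the collagen VI trimer. Col6a1 had 304, 319 and 299 CPM in si-METTL3 cells, against 160, 143 and 161 CPM in si-NC cells. Col6a2 had 136, 148 and 123 CPM in si-METTL3 cells, against 86.2, 73.7 and 92.7 CPM in si-NC cells. For both genes the groups did not overlap. Col6a1 was 1.99-fold higher (log2 fold change 0.99, SE 0.07, adjusted p = 0.000504) and Col6a2 was 1.61-fold higher (0.69, SE 0.11, adjusted p = 0.00874). Col6a3 was much scarcer, with 2.88, 2.23 and 2.84 CPM in si-METTL3 cells, against 1.31, 1.19 and 1.61 CPM in si-NC cells. Again every si-METTL3 library was above every si-NC library, and the change was 1.93-fold (log2 fold change 0.95, SE 0.22, adjusted p = 0.0283).

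Per length, Col6a3 averaged 0.250 ± 0.0361 FPKM in si-METTL3 cells and 0.117 ± 0.0208 FPKM in si-NC cells, against 62.0 ± 2.43 and 30.8 ± 1.64 FPKM of Col6a1 in the same groups. The genes of the alternative long chains, Col6a4, Col6a5 and Col6a6, were untested, with no library above 5 counts. The FPKM ratio of Col6a1 to Col6a2 was 2.21, 2.12 and 2.39 in si-METTL3 cells, against 1.82, 1.90 and 1.70 in si-NC cells (exact permutation test, two-sided p = 0.1, the smallest that 3 against 3 allow; 0.167 adjusted over 5 ratios).

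Col6a1 and Col6a2 are neighbours on the minus strand of chromosome 10, 85.2 kb apart (GRCm38), and Col6a3 is on the minus strand of chromosome 1. The start regions of these genes that moved together, and of Col3a1, which moved the other way, are shown as RefSeq gives them for GRCm38.p6, from 250 bases before to 50 bases after the annotated start, on the gene's strand. Capitals mark matches to 4 motifs, each searched on both strands, and no window shown holds more than 1 match. These were the TATA box (TATAAA), the CCAAT box (CCAAT), the GC box (GGGCGG) and the AP-1 motif (TGANTCA).
Col6a1 (chr10:76725995-76726294, minus strand): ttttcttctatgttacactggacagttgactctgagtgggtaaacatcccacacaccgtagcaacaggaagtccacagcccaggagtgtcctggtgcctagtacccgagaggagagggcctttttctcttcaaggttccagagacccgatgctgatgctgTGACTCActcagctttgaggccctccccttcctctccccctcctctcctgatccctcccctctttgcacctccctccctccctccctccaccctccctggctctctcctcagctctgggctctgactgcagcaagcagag
Col6a2 (chr10:76623581-76623880, minus strand): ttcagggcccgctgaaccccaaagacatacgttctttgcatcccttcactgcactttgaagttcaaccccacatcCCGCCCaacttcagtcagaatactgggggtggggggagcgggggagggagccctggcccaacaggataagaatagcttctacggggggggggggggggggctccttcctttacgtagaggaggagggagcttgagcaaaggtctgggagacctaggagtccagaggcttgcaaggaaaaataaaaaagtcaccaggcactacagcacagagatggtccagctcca
Col6a3 (chr1:90843922-90844221, minus strand): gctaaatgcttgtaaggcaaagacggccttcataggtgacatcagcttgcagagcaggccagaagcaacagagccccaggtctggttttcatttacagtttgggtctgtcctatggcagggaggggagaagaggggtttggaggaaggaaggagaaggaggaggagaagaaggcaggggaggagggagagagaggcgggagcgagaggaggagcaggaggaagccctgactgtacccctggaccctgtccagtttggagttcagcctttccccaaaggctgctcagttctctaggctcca
Col3a1 (chr1:45311288-45311587, plus strand): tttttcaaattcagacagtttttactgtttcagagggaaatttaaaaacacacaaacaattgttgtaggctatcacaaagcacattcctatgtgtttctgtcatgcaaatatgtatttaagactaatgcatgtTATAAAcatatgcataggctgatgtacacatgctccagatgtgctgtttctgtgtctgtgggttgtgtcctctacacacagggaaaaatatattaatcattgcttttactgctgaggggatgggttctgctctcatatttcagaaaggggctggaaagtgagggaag

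The Col6a1 window holds 1 AP-1 match, beginning at base -90 from the RefSeq start, which is 124 bases from the start in GENCODE M21. TGANTCA occurs in 7.81% of all 32851 windows of this length, and among the windows of 22 tested chains it was found in that of Col6a1 alone (4.55%). Col6a2 holds a GGGCGG match on the opposite strand, and 16 of the 22 windows held one on either strand (72.7%, against 35.7% of all windows). The Col3a1 window holds a TATAAA match, which 2 of the 22 had (9.09%, against 13.6% of all windows), the other being Col11a2. CCAAT was found in 9 of the 22 (40.9%, against 37.4% of all windows). A match is a run of letters and not a binding site, and a window without a match says only that these letters are not in it. Windows were given for 35 of the 44 chains and 7 of the 11 called ones.

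FACIT chains, which lie on fibrils without forming fibrils themselves, moved in both directions, and all 6 tested ones were called, 3 higher and 3 lower, against 18.9% of all tested genes. Col16a1, Col12a1 and Col22a1 kept the call in 2 of the 6 fits without 1 library. Col14a1, a chain that binds collagen I fibrils in dense connective tissue, rose most among the called chains. It had 3.79, 4.46 and 3.94 CPM in si-METTL3 cells, against 1.43, 0.962 and 1.5 CPM in si-NC cells, 3.11-fold higher (log2 fold change 1.64, SE 0.22, adjusted p = 0.00511). Col22a1, a chain known from the junctions between muscle and tendon, had 1.69, 1.87 and 1.30 CPM in si-METTL3 cells, against 0.684, 0.564 and 0.817 CPM in si-NC cells, 2.34-fold higher (1.22, SE 0.28, adjusted p = 0.0267). Col16a1, a FACIT-related chain, had 29.98, 31.9 and 29.5 CPM in si-METTL3 cells, against 19.3, 21.7 and 25.1 CPM in si-NC cells, 1.38-fold higher (0.47, SE 0.12, adjusted p = 0.0326). CPM of the groups did not overlap for these chains. On the other strand Col14a1 overlaps Gm49257 (3848 bp), 1700040F17Rik (2906 bp) and Gm18787 (784 bp). Col22a1 overlaps Gm16308 (3673 bp) and Col12a1 overlaps 4930562D21Rik (2132 bp) in the same way. The counts of Col14a1, Col22a1 and Col12a1 are thus uncertain where strand was not used.

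The deposited FPKM of Col22a1 gave another picture: 0.38, 0.23 and 0.15 FPKM in si-METTL3 cells, against 0.13, 0.07 and 0.29 FPKM in si-NC cells, with overlap. The transcript length implied by the ratio of counts to FPKM varied by 38.8% (coefficient of variation over libraries) for Col22a1, against 0.395% for Col6a1 and 1.13% for Col3a1. It also varied for the called chains Col20a1 (17.8%), Col16a1 (15.02%), Col14a1 (14.5%) and Col11a2 (13.7%), and for the uncalled Col4a3 (55.5%). On log2(FPKM + 1) Col22a1 did not pass (limma adjusted p = 0.457).

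Col9a3, a chain of the collagen IX of cartilage, had 3.19, 3.65 and 4.14 CPM in si-METTL3 cells, against 7.70, 7.76 and 7.90 CPM in si-NC cells. It was 2.13-fold lower (log2 fold change -1.09, SE 0.14, adjusted p = 0.00438). Its trimer partners were near absent in both groups: Col9a1 had 0 counts, and Col9a2 had 1, 2 and 0 counts in si-METTL3 cells, against 0 in every si-NC library. Col9a3 overlaps Tcfl5, on the other strand, by 234 bp (GRCm38), and Tcfl5 had 6 counts in si-METTL3 cells and 13 in si-NC cells. Col20a1, a FACIT chain whose role is little described, had 12.1, 13.3 and 10.4 CPM in si-METTL3 cells, against 20.98, 22.0 and 18.5 CPM in si-NC cells, 1.72-fold lower (-0.78, SE 0.13, adjusted p = 0.00901). Col12a1, a long chain found in tendon and other tissues under load, had 44.0, 47.4 and 48.4 CPM in si-METTL3 cells, against 59.7, 65.1 and 56.5 CPM in si-NC cells, 1.30-fold lower (-0.38, SE 0.09, adjusted p = 0.0254). The groups did not overlap for any of these 3 chains.

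Of the 10 tested fibrillar chains 2 were lower in si-METTL3 cells (10.2% of all tested genes were) and 0 higher (8.67% of all), with a median log2 fold change of 0.02. Col3a1, the chain of the collagen III of soft connective tissue, had 15.7, 16.8 and 15.7 CPM in si-METTL3 cells, against 30.3, 27.0 and 30.6 CPM in si-NC cells. It was 1.82-fold lower (log2 fold change -0.87, SE 0.09, adjusted p = 0.00218). Col11a2, a chain of the collagen XI of cartilage, had 12.4, 11.1 and 9.61 CPM in si-METTL3 cells, against 19.98, 17.8 and 19.8 CPM in si-NC cells, 1.74-fold lower (-0.80, SE 0.12, adjusted p = 0.00776). All si-METTL3 libraries were below all si-NC libraries for both genes. Col3a1 is 24.6 kb from Col5a2 on chromosome 1, on the opposite strand, and Col5a2 had a log2 fold change of -0.15 (SE 0.08, adjusted p = 0.213), which did not pass.

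Neither chain of the abundant collagen I was called. Col1a1 had a log2 fold change of 0.01 (SE 0.09, adjusted p = 0.921), and Col1a2 of 0.31 (SE 0.09, adjusted p = 0.0574), just short of the threshold. DESeq2 called Col1a2 higher (0.30, adjusted p = 0.0419), as did edgeR with DESeq2's size factors (adjusted p = 0.0478). With counts corrected for transcript length its log2 fold change was 0.11 (adjusted p = 0.589), and the range of adjusted p over all 19 alternative fits was 0.000851 to 0.589. The FPKM ratio of Col1a1 to Col1a2 was 8.77, 7.40 and 8.26 in si-METTL3 cells, against 10.7, 10.7 and 10.0 in si-NC cells (exact permutation test, two-sided p = 0.1, 0.167 adjusted over 5 ratios). The groups of this ratio did not overlap, and no p below 0.1 is possible with 3 against 3. The ratio of Col5a1 to Col5a2 was 0.681 ± 0.0458 in si-METTL3 cells and 0.614 ± 0.0109 in si-NC cells, with the same exact p. Col11a1 (0.20), Col27a1 (0.15), Col5a1 (0.04), Col5a3 (0.02) and Col2a1 (-0.32) were not called either.

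**Figure D3:**
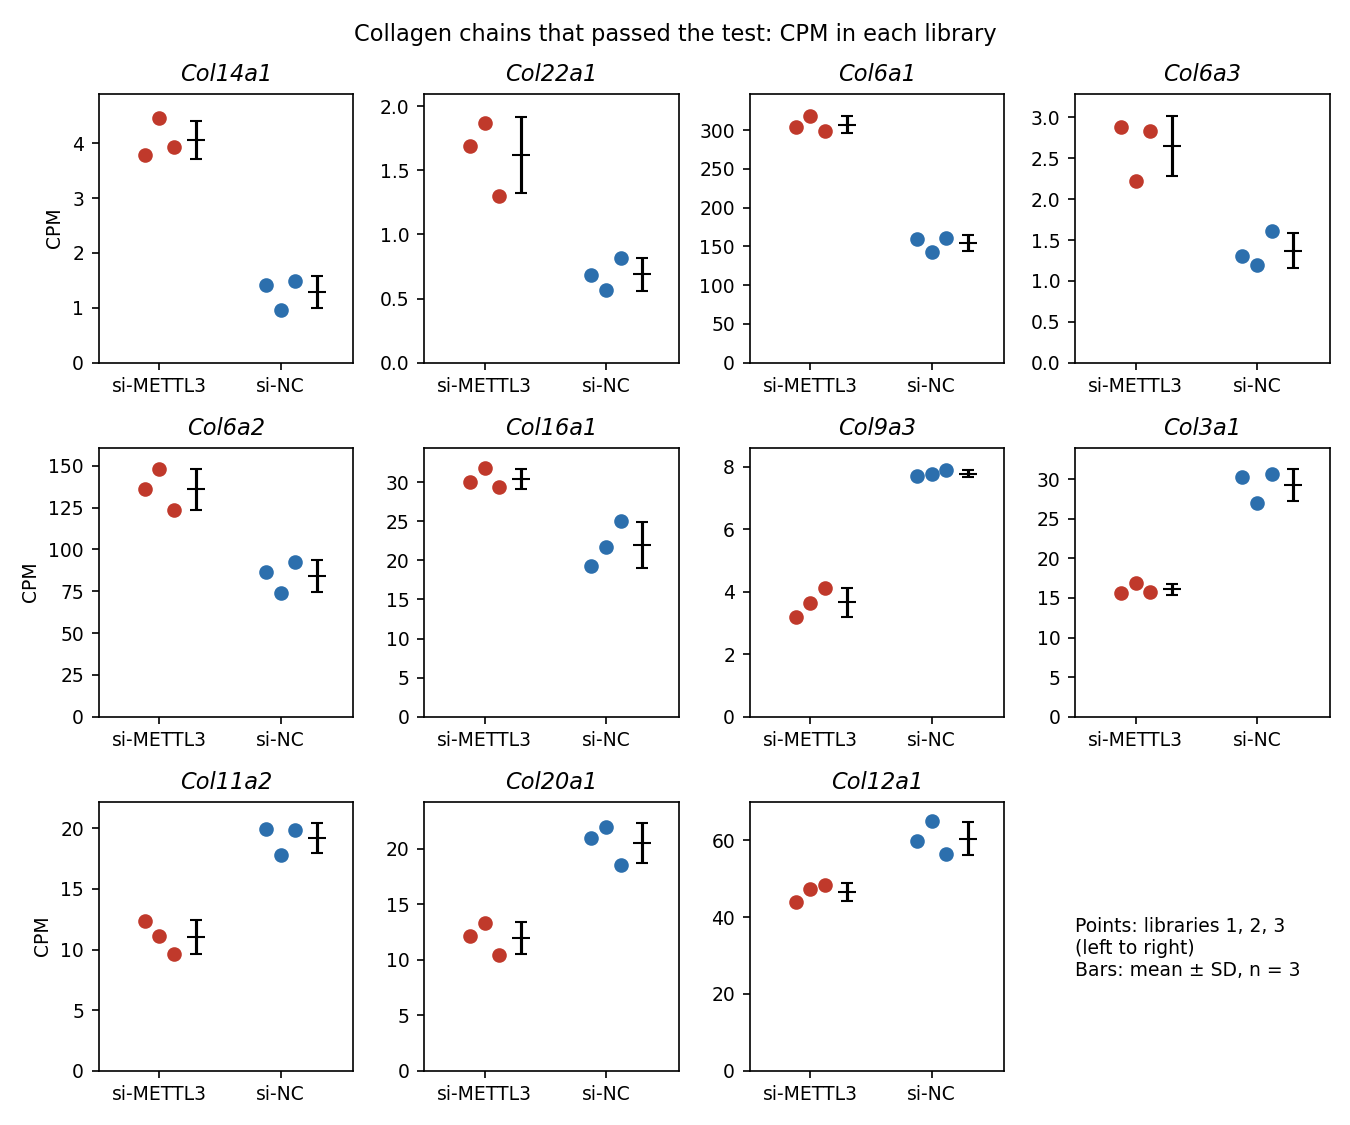
CPM of each called collagen chain in each library, with the mean and SD of each group (n = 3) beside its points; every axis starts at 0. In each panel the points of the groups do not overlap, as for Col9a3 with 3.19 to 4.14 CPM in si-METTL3 cells and 7.70 to 7.90 CPM in si-NC cells.

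None of the 6 tested basement membrane chains passed. Col4a1 had a log2 fold change of 0.10 (SE 0.09, adjusted p = 0.458) and Col4a2, which shares a head-to-head start region with it on chromosome 8, 0.05 (SE 0.09, adjusted p = 0.715). Their FPKM ratio was 2.35 ± 0.0337 in si-METTL3 cells and 2.22 ± 0.114 in si-NC cells (exact permutation test, two-sided p = 0.2, 0.25 adjusted over 5 ratios). Col4a5 had -0.07 (SE 0.08) and Col4a6, its neighbour 1.31 kb away on chromosome X, 0.32 (SE 0.41). The fitted values of Col4a4 (2.13, SE 1.05, adjusted p = 0.193) and Col4a3 (1.42, SE 1.24, adjusted p = 0.442) were high but had the widest errors of the tested chains. They are partner chains of the basement membranes of kidney glomeruli and lung alveoli.

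Col4a3 had 27, 32 and 10 counts in si-METTL3 cells, against 0, 0 and 35 in si-NC cells. Col4a4 had 18, 16 and 16 counts in si-METTL3 cells, against 0, 0 and 15 in si-NC cells. The signal was thus present in all si-METTL3 libraries and, among the controls, in si-NC replicate 3 alone. Without that library edgeR called both genes (Col4a3 adjusted p = 0.0291, Col4a4 adjusted p = 0.0149), with both remaining si-NC libraries at 0 counts. Sftpc, a surfactant gene of lung alveoli, had 1503, 1065 and 790 counts in si-METTL3 cells, against 38, 1 and 1131 in si-NC cells. Hbb-bs, a globin gene of red blood cells, had 351, 205 and 175 counts in si-METTL3 cells, against 6, 11 and 260 in si-NC cells. These lung and blood markers were therefore high in the same 4 libraries as Col4a3 and Col4a4. Their part in the values of these chains was not tested.

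Both genes start within 71 bp of each other on opposite strands of chromosome 1. The RefSeq window of Col4a4, which spans the stretch between the starts, is shown because the genes had counts in the same libraries; it held no match to the motifs above.
Col4a4 (chr1:82586800-82587099, minus strand, GRCm38.p6): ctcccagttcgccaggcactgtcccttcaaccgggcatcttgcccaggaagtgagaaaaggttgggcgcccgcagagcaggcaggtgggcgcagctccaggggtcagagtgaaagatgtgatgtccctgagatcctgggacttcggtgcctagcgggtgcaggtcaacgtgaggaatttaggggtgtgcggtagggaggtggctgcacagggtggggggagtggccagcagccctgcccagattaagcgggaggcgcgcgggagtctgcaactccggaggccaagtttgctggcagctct

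**Figure D4:**
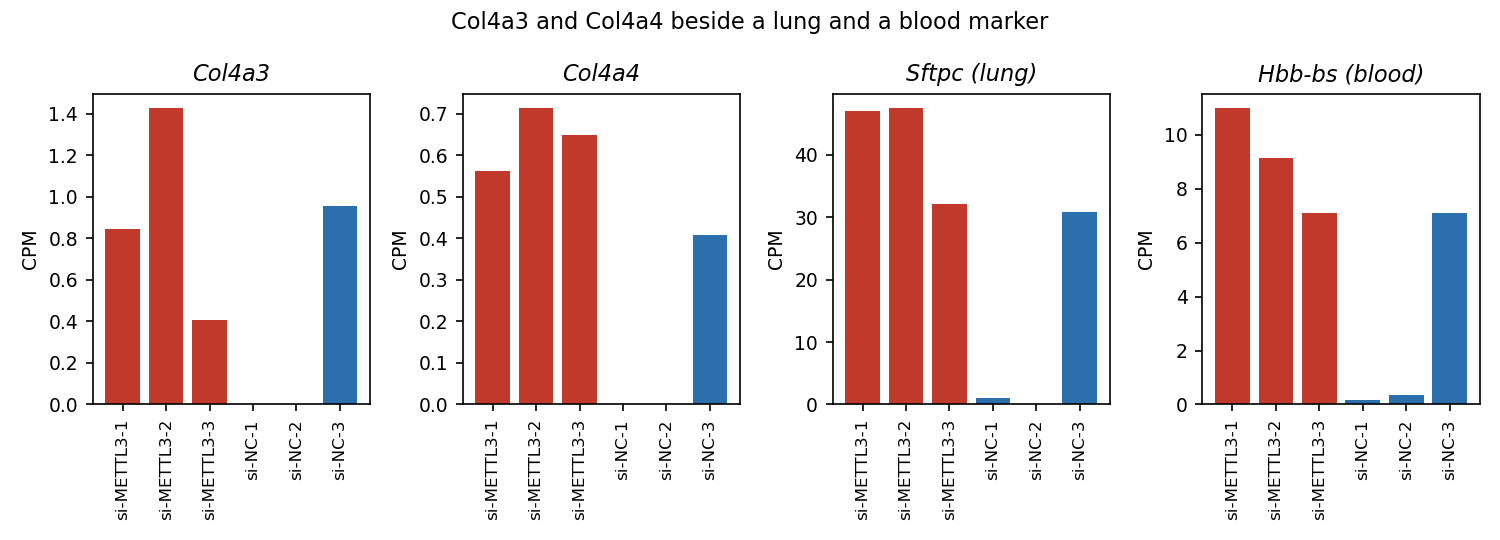
CPM of Col4a3 and Col4a4 in each library, beside Sftpc as a lung marker and Hbb-bs as a blood marker; each bar is a library and every axis starts at 0. In all panels si-NC replicates 1 and 2 are at or near 0, while si-NC replicate 3 is near the level of the si-METTL3 libraries.

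The other tested chains were not called. Col8a1, a short chain of the collagen VIII networks made by vessel and other cells, had a log2 fold change of 0.45 (SE 0.16, adjusted p = 0.091), and its CPM did not overlap between the groups. Its partner Col8a2 had 0.21 (SE 0.28), and their FPKM ratio was 6.05 ± 0.696 in si-METTL3 cells and 5.09 ± 1.09 in si-NC cells (exact permutation test, two-sided p = 0.3). Col18a1 and Col15a1, whose chains release antiangiogenic fragments, had 0.36 (SE 0.25) and 0.16 (SE 0.34). Col18a1 overlaps Slc19a1, on the other strand, by 8825 bp, so its counts are uncertain where strand was not used. Col7a1, the chain of the fibrils that anchor skin, had 0.22 (SE 0.17). The 14 untested chains had at most 12 counts in a library and at most 39 in all; they include Col17a1, Col23a1, Col25a1 and Col13a1 of the transmembrane type, and Col9a1, Col9a2, Col10a1, Col19a1, Col24a1, Col26a1, Col28a1, Col6a4, Col6a5 and Col6a6.

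CPM of the groups did not overlap for 15 of the 30 chains (50%), against 41.5% of all tested genes. The si-METTL3 libraries were above for 10 chains (20.2% of all tested genes) and below for 5 (21.3%). Among the called chains 3 changed by 2-fold or more, Col14a1, Col22a1 and Col9a3, against 2.9% of all tested genes. The authors' deposited table lists 11 chains at an adjusted p under 0.05, the same 11, against 11.9% of all 22298 genes. For Col22a1 the authors' deposited table gives a log2 fold change of 0.63, against 1.22 from the counts here.

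Leaving out each library in turn gave 6 further fits. In all of them 7 chains, Col6a1, Col6a2, Col14a1, Col3a1, Col9a3, Col11a2 and Col20a1, were called (23.3%), against 4.42% of all tested genes. Col16a1, Col12a1, Col22a1 and Col6a3 were called in 2 of the 6, with the highest adjusted p at 0.12, 0.093, 0.11 and 0.111. Only the fits without si-NC replicate 2 or without si-NC replicate 3 kept those calls. When si-NC replicate 1 was left out 3 chains were higher, against 2.74% of all tested genes. Without si-METTL3 replicate 1, 2 or 3 it was also 3 chains, against 4.12%, 2.44% and 2.36% of all tested genes. When si-NC replicate 2 was left out 8 were higher, against 17.9%, and without si-NC replicate 3 it was 8, against 6.17%. The 8 without si-NC replicate 3 include Col4a3 and Col4a4, which had 0 counts in both remaining si-NC libraries. Against si-NC replicate 3 alone, as a ratio of CPM with no test, the 6 higher chains had log2 ratios from 0.28 (Col16a1) to 1.44 (Col14a1), with 0.93 for Col6a1. The 5 lower chains had log2 ratios from -1.11 (Col9a3) to -0.28 (Col12a1), with -0.93 for Col3a1.

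Long transcripts were counted unevenly between libraries, and collagen transcripts are long. Relative to the mean of the 6 libraries, the log2 level over 11344 genes rose per doubling of transcript length by 0.03, 0.08 and 0.10 in si-METTL3 libraries, against slopes of -0.09, 0.03 and -0.15 in si-NC libraries. A correction for length used the transcript length implied by the ratio of counts to FPKM. For Col22a1 this was 5125 bases, against 8809 in its longest GENCODE M21 transcript. The implied length varied between libraries by 38.8% for Col22a1 and 15.02% for Col16a1. With counts corrected in this way in each library, 3 chains were higher, against 8.29% of all tested genes, and 5 lower, against 9.42% (17.7% in either direction). The calls of Col16a1 (adjusted p = 0.103), Col22a1 (adjusted p = 0.051) and Col6a3 (adjusted p = 0.154) were then lost, and the other 8 remained. Col6a3 and Col16a1 moved to log2 fold changes of 0.64 and 0.35.

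Marker lists of other cell types also had other levels in si-METTL3 libraries. Summed CPM of 14 stromal fibroblast genes was 902 to 1086 in si-METTL3 libraries and 752 to 787 in si-NC libraries, with 0 of the 14 at 0. Of the 10 tested, Pdgfra (0.78, adjusted p = 0.00184), Pdgfrb (1.68, adjusted p = 0.0332) and S100a4 (0.59, adjusted p = 0.0194) rose. Dcn (0.51), Npnt (0.19), Thy1 (1.12), Mfap4 (1.30), Dpt (1.45), Inmt (1.49) and Gsn (0.01) did not pass, and Lum had at most 1 count in any library. Gsn held 299, 283.5 and 278 CPM of the sums in si-METTL3 libraries, against 295, 249 and 310 in si-NC libraries. Dcn held 256, 405 and 372 CPM in si-METTL3 libraries, against 217, 308 and 201 in si-NC libraries. Summed CPM of 10 smooth muscle and pericyte genes was 29.4 to 30.2 in si-METTL3 libraries and 18.1 to 21.7 in si-NC libraries, with 0 at 0. Of the 7 tested, Notch3 (0.73, adjusted p = 0.0112) and Acta2 (0.70, adjusted p = 0.0235) were higher. Cspg4 (1.25), Myh11 (0.93), Cnn1 (0.51), Des (0.32) and Tagln (-0.17) did not pass. Summed CPM of 12 Sertoli cell genes was 550 to 591 in si-METTL3 libraries and 305 to 353 in si-NC libraries, with Fshr at 0. Trf (1.84, adjusted p = 0.000168), Clu (1.37, adjusted p = 0.00175) and Wt1 (0.61, adjusted p = 0.00277) of this list were higher and Gata4 was lower (-0.41, adjusted p = 0.0299), while Amh (-0.26), Inha (-0.17) and Inhbb (0.02) did not pass, and the list's median log2 fold change was 0.18. Summed CPM of 16 brain genes was 88.9 to 95.3 in si-METTL3 libraries and 72.7 to 81.6 in si-NC libraries. Of these Tubb3 (1.09, adjusted p = 0.00601) and Syt1 (1.28, adjusted p = 0.023) were higher, and Camk2a had 150, 107 and 105 counts in si-METTL3 cells, against 0, 83 and 74 in si-NC cells. Endothelial genes summed to 25.5 to 30.9 CPM in si-METTL3 libraries, against 15.85, 16.35 and 26.4 in si-NC libraries. Macrophage genes summed to 22.2 to 29.99 CPM in si-METTL3 libraries, against 5.59, 6.40 and 20.65 in si-NC libraries. Neither list had a gene at 0 in every library, and none of the 9 tested endothelial or 7 tested macrophage genes passed. In both lists si-NC replicate 3 stood apart from the other controls, as in the lung genes. The same held for Inmt of the stromal list, with 91, 52 and 46 counts in si-METTL3 cells, against 0, 0 and 90 in si-NC cells. The part of these cell types in the collagen values was not tested.

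The genes that modify, fold, secrete, process and cross-link collagen form the rest of the pathway. Of 42 listed biosynthesis genes 38 were tested, 5 were higher and 0 lower (13.2% called, against 18.9% of all tested genes), and their median log2 fold change was 0.08. Of the 7 tested genes of propeptide processing 3 were higher. These were Bmp1, which cuts the carboxyl propeptide of fibrillar collagens, with 19.97 ± 3.28 CPM in si-METTL3 cells and 11.5 ± 1.83 in si-NC cells (log2 fold change 0.79, adjusted p = 0.0216), and the amino propeptidases Adamts3 (0.61, adjusted p = 0.0338) and Adamts2 (0.54, adjusted p = 0.0126). Of the 12 tested genes of folding and secretion 2 were higher. Fkbp14, a prolyl isomerase of the endoplasmic reticulum that binds collagen, had 19.8 ± 1.67 CPM in si-METTL3 cells and 11.8 ± 0.198 in si-NC cells (0.75, adjusted p = 0.00497). Klhl12, an adaptor for large collagen carriers, had 78.0 ± 2.63 and 63.6 ± 2.53 CPM in the same groups (0.29, adjusted p = 0.0288). None of 14 tested modification genes and none of 5 tested cross-linking genes passed.

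The most abundant genes of the biosynthesis list per length did not pass either. The collagen chaperone Serpinh1 had 270 FPKM in si-METTL3 cells and 251 in si-NC cells (log2 fold change 0.11, adjusted p = 0.378). The prolyl isomerase Ppib had 207 FPKM in si-METTL3 cells and 234 in si-NC cells (-0.20, adjusted p = 0.13). The chaperone Hsp90b1 had 181 and 99.1 FPKM in the same groups (0.85, adjusted p = 0.108), and the coat protein Sec13 98.6 and 113 (-0.22, adjusted p = 0.136).

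Collagen receptors pass signals from the matrix or take collagen up, and binding proteins attach to fibrils. Of 35 listed genes 26 were tested, 10 were higher and 3 lower (50% called, against 18.9% of all tested genes), with a median log2 fold change of 0.35. The list was chosen with earlier results of these data known, so this share is a description and not a test of the list. Among receptors 5 were higher and 2 lower of 12 tested. Mrc2, an uptake receptor for collagen, had 52.1 ± 7.58 CPM in si-METTL3 cells and 26.9 ± 0.934 in si-NC cells (0.96, adjusted p = 0.00365). Antxr1, a receptor that binds collagens I and VI, had 129 ± 1.25 CPM in si-METTL3 cells and 78.4 ± 3.42 in si-NC cells (0.72, adjusted p = 0.00125). The collagen-binding integrin chain Itga2 (1.11, adjusted p = 0.0325), the receptor Adgrg1, which binds collagen III (0.58, adjusted p = 0.0469), and the receptor kinase Ddr1 (0.38, adjusted p = 0.0225) were also higher. Lower were the adhesion receptor Cd44 (-0.26, adjusted p = 0.0325) and Antxr2 (-0.23, adjusted p = 0.0498).

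Among the binding proteins 5 were higher and 1 lower of 14 tested. Tnxb, a tenascin that associates with collagen fibrils, had 66.8 ± 5.39 CPM in si-METTL3 cells and 26.6 ± 3.61 in si-NC cells (1.33, adjusted p = 0.00125). Prelp, a leucine-rich repeat protein that links collagen to basement membranes, had 51, 32 and 28 counts in si-METTL3 cells, against 5, 3 and 20 in si-NC cells (2.35, adjusted p = 0.0327), so si-NC replicate 3 was again the highest control. Matn2 (0.63, adjusted p = 0.0347), Thbs2 (0.52, adjusted p = 0.0254) and Fn1, the gene of fibronectin (0.37, adjusted p = 0.0217), were higher, and Thbs1 was lower (-0.41, adjusted p = 0.0208). Fn1 was abundant, with 304 FPKM in si-METTL3 cells and 231 in si-NC cells. Sparc had 675 and 611 FPKM in the same groups (0.13, adjusted p = 0.32), Dcn 162 and 113 (0.51, adjusted p = 0.139) and Itgb1 88.2 and 71.1 (0.29, adjusted p = 0.0526), and these did not pass. Fkbp14, Tnxb, Antxr1 and Mrc2 were the members of these lists called in each of the 6 fits without 1 library. Leaving out si-NC libraries 1, 2 and 3 in turn gave 1, 9 and 2 higher biosynthesis genes, against 2.74%, 17.9% and 6.17% of all tested genes. Leaving out si-METTL3 libraries 1, 2 and 3 gave 3, 1 and 1, against 4.12%, 2.44% and 2.36%. Lower biosynthesis genes numbered 6 without si-NC replicate 2, against 18.9% of all tested genes, and 0 in the other fits, against 2.63% to 6.13%. When si-NC replicate 1 or any si-METTL3 library was left out, higher receptor and binding genes numbered 3 or 4, with 0 lower. Without si-NC replicate 2 they numbered 11, with 3 lower, and without si-NC replicate 3 they numbered 7, with 1 lower. The shares of all tested genes in these fits are those just given.

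**Figure D5:**
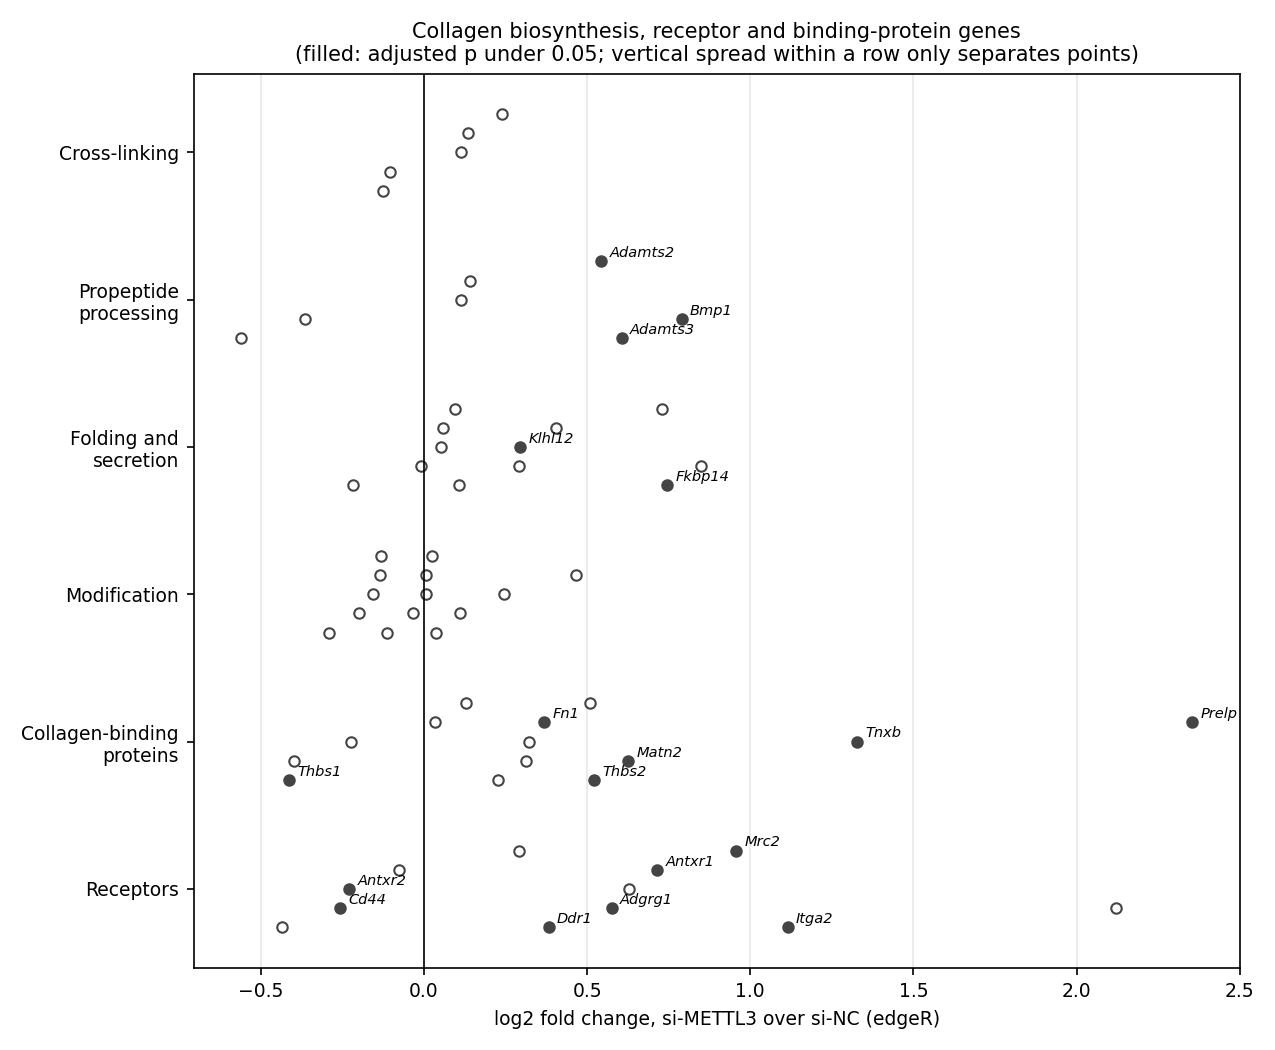
Log2 fold change, si-METTL3 over si-NC, of the tested collagen biosynthesis genes (cross-linking, propeptide processing, folding and secretion, modification) and collagen-binding proteins and receptors; each point is a gene, filled and named where the edgeR adjusted p was under 0.05. Points of the modification row are all open, while the receptor and binding rows hold 10 filled points right of 0 and 3 left of it.

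Collagen transcripts differ in make-up from the rest. The longest GENCODE M21 transcripts of the 30 tested chains had a median of 6284 bases and 51.5 exons, against 3202 bases and 9 exons over 13014 tested genes. Their GC content had a median of 56.3%, against 50.4%. GGACT, the core of the most common m6A sequence context, occurred at a median of 1.63 matches per kb of transcript, against 1.05 over all tested genes. Among the chains the median was 1.42 for the 6 higher, 1.6 for the 5 lower and 1.78 for the 19 uncalled ones. The lowest density was that of Col12a1, at 0.608 per kb, and the highest that of Col16a1, at 4.03 per kb. Col6a1 had 4 matches in 4100 bases and Col3a1 4 in 5564. These are matches in letters, and whether any of them carries m6A was not measured.

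The lncRNA table of the same libraries gave a further readout. GENCODE M21 assigned 37 of its transcripts to 21 collagen genes, and 13 of them had counts. Of these 1 passed the low-count filter, and it was called neither by edgeR, which called 0.733% of all 5728 tested transcripts, nor by DESeq2, which called 4.54%. In edgeR it was at an unadjusted p under 0.05. This was Col16a1-202, annotated as a processed transcript without a coding region. It had 391, 213 and 269 counts in si-METTL3 cells, against 304, 193 and 224 in si-NC cells (log2 fold change 0.55, SE 0.22, edgeR adjusted p = 0.302). Col3a1-206, a processed transcript of Col3a1, had 0 counts in every si-METTL3 library, against 7, 5 and 4 in si-NC cells. Reads that fit both such a transcript and the mRNA of the same gene may have been divided in ways the sources used here do not give.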

How the data were processed

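RNA of 6 GC-1spg libraries was sequenced. The submitters' processing notes name RSEM, StringTie, Bowtie2 and fastp and the build mm9; versions and roles are not given in the sources used here, nor is the division of reads shared by genes or the use of strand. The authors deposited, per the file headers, whole-number counts and FPKM per library for each mRNA gene and lncRNA transcript, with a log2 fold change and adjusted p-value of their own, whose test is not given. Groups and replicate numbers came from the sample titles. Symbols are those of the deposited table. All 44 collagen identifiers were found in GENCODE M21 (GRCm38), which gave positions, exons and the transcript lengths printed beside the exons. The length correction used instead the length implied by the ratio of counts to FPKM. No coordinate was converted from mm9.

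For each whole table, edgeR 4.0.16 under R 4.3.3 tested the counts (filterByExpr, TMM, quasi-likelihood fit of the group, Benjamini-Hochberg over all tested genes, threshold 0.05). CPM are counts scaled to the TMM-adjusted library size by edgeR's cpm, and SE is the log2 fold change over the square root of F. Chain ratios used exact permutation tests in scipy 1.17.1. Alternatives used DESeq2 1.42.0, limma 3.58.1 (voom, or log2(FPKM + 1) and log2(FPKM + 0.1)), sva 3.50.0, other filters and size factors, corrections for transcript length, a replicate block and leaving out each library. Values in each library are given for the called chains and the 10 of highest FPKM, and of the pathway lists every called gene and the 4 of highest FPKM are named with their fold changes, some with group means. The members, gene lists and this rule were chosen with earlier results of these data known.

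On simulated data of 12925 mRNA genes the test recovered 22.4% of the changes of 1.5-fold, 74.6% of those of 2-fold and 92.4% of those of 4-fold. False calls made up 10.6% of the calls, above the threshold of 0.05, and small changes were mostly missed. In each simulation 67 genes were changed by 1.5-fold, 67 by 2-fold and 66 by 4-fold. That is a smaller part of the genes than the 18.9% called in the mRNA data. Differences between libraries in marker genes or by transcript length were not simulated, so these shares may not hold for the data. For lncRNA, with 5296 simulated transcripts, the recovered shares were 0%, 5.97% and 45.5%, and 5.56% of calls were false.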

Additional observations from a re-analysis of the deposited data

How the results depend on the processing

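All 11 called chains kept their direction in the 19 alternative fits and against si-NC replicate 3 alone. Col3a1, Col6a1, Col9a3, Col11a2 and Col14a1 kept their call in 19 of 19, Col6a2 and Col20a1 in 18, Col16a1 and Col12a1 in 11, and Col22a1 and Col6a3 in 9. Against si-NC replicate 3 alone, added after seeing the data, the log2 ratios were 0.55 for Col6a2, 0.28 for Col16a1, -0.28 for Col12a1, -0.63 for Col20a1 and 0.72 for Col6a3. No scaling moved the median of all genes by over 0.1 (log2).

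Called chains numbered 3 to 8 higher and 4 to 6 lower when 1 library was left out, 3 higher after length correction, and 3 lower on log2(FPKM + 1) without a filter. Over all mRNA genes, leaving out 1 library gave 315 to 2390 higher and 350 to 2527 lower genes. Biosynthesis genes then numbered 1 to 9 higher and 0 to 6 lower, and receptor and binding genes 3 to 11 higher and 0 to 3 lower. With 1 surrogate variable 9 chains were higher and 5 lower, and 2990 genes were higher and 2598 lower, among them 13 and 4 biosynthesis genes, and 18 receptor and binding genes were higher. After length correction 1 biosynthesis gene was lower. With a correction for length and GC content, added after seeing the data, 1908 genes were higher, and 9 biosynthesis genes were higher and 2 lower.

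Whether replicate numbers pair the samples is not in the labels. Deviations of same-numbered libraries from their group means had correlations of 0.0706, 0.2 and -0.31 in the mRNA table. With 3 libraries per group these values cannot settle it. With the replicate block 3 chains were higher and 4 lower, 563 of all genes higher and 710 lower, 3 biosynthesis genes higher, and 4 receptor and binding genes higher and 0 lower. The block with length correction gave 2 chains higher, 484 of all genes higher and 672 lower, 1 biosynthesis gene higher and 2 receptor and binding genes higher.

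Reversals were found for 9 uncalled chains. After length correction, with the block too, and with length and GC correction, in that order, the log2 fold changes were -0.209, -0.198 and -0.196 for Col1a1, -0.0461, -0.0405 and -0.0208 for Col4a1, -0.192, -0.179 and -0.197 for Col4a2, -0.157, -0.151 and -0.136 for Col5a1, -0.0294, -0.0461 and -0.023 for Col27a1, -0.205, -0.205 and -0.229 for Col5a3 and -0.0997, -0.0656 and -0.108 for Col7a1. Col11a1 had -0.0532 and -0.0546 in the fits without the GC term. Without 1 library the values ran from -0.0624 to 0.0652 for Col1a1, -0.0299 to 0.0989 for Col4a2, -0.0153 to 0.082 for Col5a1, -0.0891 to 0.125 for Col5a3 and -0.117 to 0.316 for Col15a1. The cause was not tested. Chains under about 1 CPM rest on few counts, so differences in them were often not detectable at this depth.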
